A study of Mus musculus with 7 samples.

Results

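Chemokines are small secreted proteins that direct the movement of leukocytes and are grouped by the spacing of their first cysteines. They act on receptors coupled to G proteins, while atypical receptors bind chemokines without that coupling and remove them or shape their gradients. In the brain, microglia and macrophages are a known source of many inflammatory chemokines, and Cxcl12 with its receptor Cxcr4 is known for guiding neural precursors and for its expression in glioma. The set described here was chosen by gene symbol and holds the genes with a systematic chemokine, chemokine receptor or atypical receptor symbol (such as Ccl, Cxcl, Ccr, Cxcr or Ackr with a number) and an array probe of 1 gene symbol. By that rule it comprised 53 of 18193 genes, 33 ligands and 20 receptors. Cx3cr1 and the chemokines with other symbols, Pf4 and Ppbp, were left out by the rule, and Cxcr1 was not analysed here.

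The RNA came from EGFP-positive glioma cells, of C57/Bl6 background, that overexpress PDGF-B, which induced the primary tumours, together with EGFP, and were passaged in NOD/SCID mice. Secondary gliomas (n = 4) grew in hosts grafted with an early-onset, low-grade primary glioma, and tertiary gliomas (n = 3) grew in hosts grafted with a secondary glioma. Both groups therefore share the oncogene, the reporter, the strain of the tumour cells and the strain of the host, which lacks functional B and T lymphocytes and keeps its myeloid cells. In both, cells were freed with trypsin and sorted for EGFP, and neither the age of the mice nor the primary tumour behind each sample is stated in the labels. The labels name biological replicates without saying whether they share a donor tumour. The p-values set each group difference against the spread between these samples, and may be too small if samples share a donor tumour.

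Levels are log2 array values made by the authors with RMA, and a difference of 1 stands for a change of 2-fold. Differences are tertiary minus secondary. A gene was called when limma gave it an adjusted p (Benjamini-Hochberg over the 14453 genes tested) under 0.05. Genes whose mean was under 3.99 (the 25th percentile over the array's probes) were not tested and are called dim below. Of the 53 genes, 35 passed that filter and 18 did not. Probes differ in brightness, so levels are compared within a gene only.

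Markers of the cell types that such a sort can hold were read in the same arrays. Those of oligodendrocyte precursors, which gliomas driven by PDGF-B are known to resemble, averaged 10.05 to 10.52 in secondary and 10.10 to 10.54 in tertiary gliomas. None of the 10 was called in limma, and none had an unadjusted p under 0.05. All 17 microglia and macrophage markers were lower in tertiary gliomas, with a list mean of 10.00 to 10.91 against 5.87 to 6.73 and a median difference of -4.19. Of 9 granulocyte markers, 5 were tested and 3 called lower (Csf3r, S100a9 and S100a8), 5 of the 9 had overlapping groups, and the median difference over the 9 was -0.19. Their list mean was 4.87 to 5.66 against 3.81 to 3.97. No lymphocyte or natural killer marker was called among 5 tested, and none had an unadjusted p under 0.05. Endothelial, astrocyte and neuron markers gave no call among 9, 8 and 7 tested, where limma had 3 lower, 2 lower and 2 higher at an unadjusted p under 0.05. Of all genes tested, 11.7% were lower and 12.1% higher at that unadjusted threshold. In these bulk samples fewer cells of a type and less RNA per cell cannot be told apart.

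Tertiary gliomas had lower levels of 17 chemokine genes, 13 ligands and 4 receptors, and no member was called higher. The 13 ligands were Cxcl2, Ccl3, Ccl12, Ccl6, Ccl4, Ccl9, Cxcl13, Cxcl16, Cxcl10, Ccl5, Cxcl1, Ccl2 and Cxcl14, and the 4 receptors were Ccrl2, Ccr6, Cxcr4 and Ackr4. The falls ran from 0.96 to 5.53 on the log2 scale, and 14 of the 17 were at least 2 on that scale. In the whole array 6.33% of the genes tested were called lower and 1.04% higher. At an unadjusted p under 0.05, limma had 19 members lower and 1 higher, where the shares of all genes tested were 11.7% and 12.1%. The median difference over all 53 members, dim ones included, was -0.17, where that over all 18193 genes was 0.06.

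**Figure D1:**
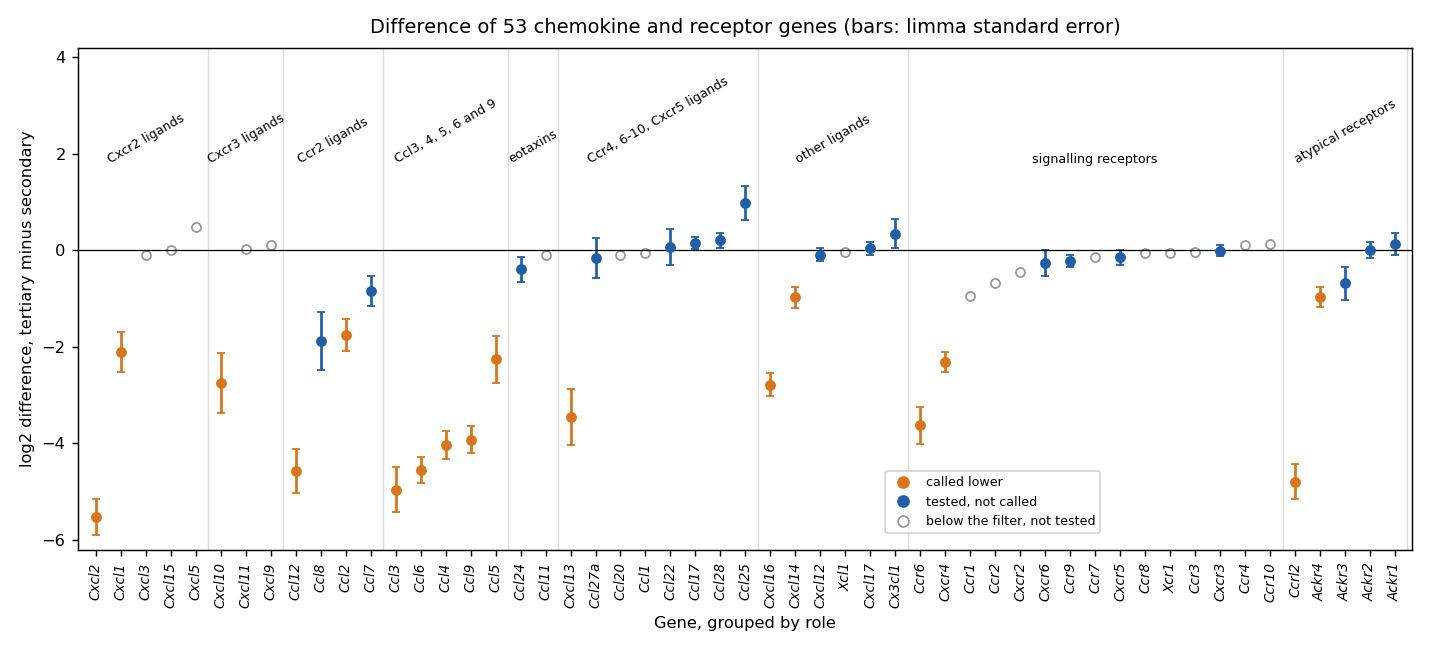
Difference in log2 level, tertiary minus secondary, for all 53 chemokine and receptor genes, grouped by role on the x axis. Orange points are called lower, blue points were tested and not called, both with the limma standard error, and open points lay below the filter on dim probes. The called genes reach from -0.96 (Ackr4) to -5.53 (Cxcl2), and most other members sit close to 0.

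The groups did not overlap in 21 of the 53 members, all 21 with the tertiary values below the secondary ones. That arrangement held for 9.51% of all 18193 genes, and the opposite one, which no member showed with the probe used for it, for 9.03%. Besides the 17 called genes these were Ccl7, Ccl8, Ccr1 and Ccr9. The other Ccr9 probes above the filter had overlapping groups, with differences of 0.07, -0.04 and 0.35. Among the called genes, secondary glioma 3 had the highest value of its group in 13 of 17. Tertiary glioma 3 had the lowest value of its group in 13, and tertiary glioma 2 the highest in 10. The microglia and macrophage markers also averaged highest in secondary glioma 3 (10.91) and lowest in tertiary glioma 3 (5.87). Without both secondary glioma 3 and tertiary glioma 1, a choice made after seeing the data, 14 members were called lower and 1 higher.

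**Figure D2:**
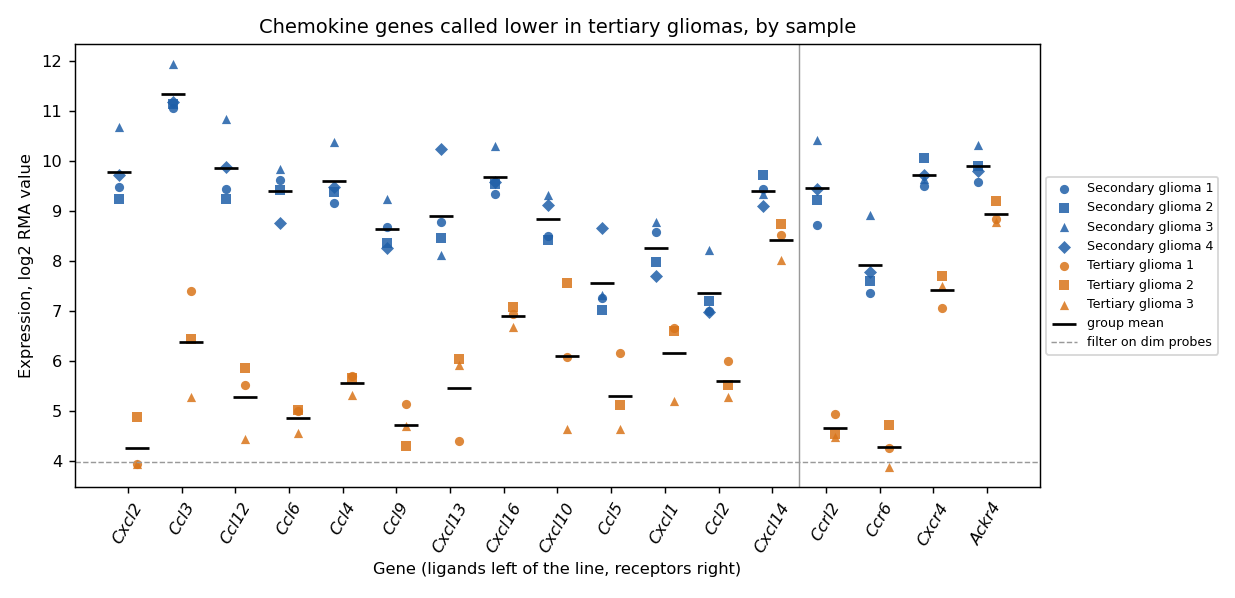
Log2 RMA value of each sample (y axis) for the 17 genes called lower, with ligands left and receptors right of the vertical line. Each marker is 1 of the 4 secondary (blue) or 3 tertiary (orange) gliomas, the bar is the group mean and the dashed line the filter at 3.99. In none of the 17 genes does a tertiary value reach the lowest secondary value.

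The CXC ligands of Cxcr2, which attract neutrophils, were split between genes that fell steeply and genes that were dim throughout. Cxcl2 read 9.49, 9.25, 10.69 and 9.74 in secondary gliomas 1 to 4 and 3.95, 4.89 and 3.95 in tertiary gliomas 1 to 3. Its tertiary values in gliomas 1 and 3 lay just below the dim filter, and the difference was -5.53 ± 0.38 (SE, n = 4 and 3, limma adjusted p = 0.000113). Cxcl1 read 8.59, 8.0, 8.80 and 7.70 in secondary and 6.67, 6.61 and 5.22 in tertiary gliomas. Tertiary glioma 3 was the lowest by a wide margin, and the difference was -2.11 ± 0.41 (limma adjusted p = 0.0215). The call of Cxcl1 was lost without secondary glioma 1 (limma adjusted p = 0.0564) or 3 (0.0603), and its probe set, marked x_at, can also pick up other transcripts. Other Cxcl1 probes gave -2.26 ± 0.41 (limma adjusted p = 0.0172) and -2.05 ± 0.49 (0.0529, over the threshold). Cxcl3, Cxcl5 and Cxcl15 lay below the filter in both groups, with differences between -0.10 and 0.48. Among granulocyte markers Csf3r differed by -4.38 ± 0.32 and S100a9 by -3.45, while Ltf and Camp, at -0.18 and -0.11, were not called. Their part in the result was not tested.

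Cxcl1, Cxcl2 and Cxcl3 are genes of similar sequence that lie close together on chromosome 5, with Cxcl15 between Cxcl3 and Cxcl1. The bases before the starts of Cxcl1, Cxcl2 and Cxcl3 were set side by side. The windows below, from RefSeq on GRCm38.p6, run from base -170 to base -11 before the annotated start, 5′ to 3′ on the gene's strand. Capitals mark each match on either strand to a κB-type motif, GGG and TTCC with any 3 bases between them, the kind of site bound by NF-κB, a transcription factor known to drive inflammatory chemokine genes. Matches on both strands that overlap show as 1 longer run. The genes shown are the 5 called members with a match, and Cxcl3 as a dim gene close to Cxcl1 and Cxcl2.
Cxcl1: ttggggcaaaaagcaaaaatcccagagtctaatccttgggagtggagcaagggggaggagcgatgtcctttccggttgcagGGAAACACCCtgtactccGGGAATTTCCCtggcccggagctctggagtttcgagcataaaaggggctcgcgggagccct
Cxcl2: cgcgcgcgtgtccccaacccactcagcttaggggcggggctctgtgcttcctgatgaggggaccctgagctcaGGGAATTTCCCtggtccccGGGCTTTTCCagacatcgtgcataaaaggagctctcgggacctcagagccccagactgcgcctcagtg
Cxcl3: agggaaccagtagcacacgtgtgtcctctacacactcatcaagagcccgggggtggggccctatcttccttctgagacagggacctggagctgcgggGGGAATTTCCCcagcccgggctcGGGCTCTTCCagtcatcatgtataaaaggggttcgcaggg
Cxcl10: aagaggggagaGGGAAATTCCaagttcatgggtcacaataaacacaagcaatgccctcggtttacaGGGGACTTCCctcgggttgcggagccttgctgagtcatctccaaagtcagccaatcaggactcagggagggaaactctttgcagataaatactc
Ccl9: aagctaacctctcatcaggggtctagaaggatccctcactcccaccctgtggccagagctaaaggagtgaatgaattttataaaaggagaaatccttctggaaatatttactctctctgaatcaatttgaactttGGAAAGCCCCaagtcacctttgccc
Ccr6: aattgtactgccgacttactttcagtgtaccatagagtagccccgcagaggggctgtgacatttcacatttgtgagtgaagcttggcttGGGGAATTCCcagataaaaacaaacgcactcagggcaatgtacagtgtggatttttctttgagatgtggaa
They lie at chr5:90891075-90891234 (plus strand), chr5:90903729-90903888 (plus), chr5:90785931-90786090 (plus), chr5:92348900-92349059 (minus), chr11:83578647-83578806 (minus) and chr17:8242356-8242515 (plus).

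The same 10 letters, GGGAATTTCC, stood at bases -71 to -62 of Cxcl1, -97 to -88 of Cxcl2 and -73 to -64 of Cxcl3. Cxcl2 and Cxcl3 each held a second match downstream of it, and Cxcl1 held one upstream on the other strand. Cxcl3 read 1.63 to 2.20 in secondary and 1.55 to 1.95 in tertiary gliomas, levels at which a fall could not have been seen with this probe. Across the set, 40 of 53 members matched a RefSeq promoter, and 9 of the 40 (22.5%) held the motif in the 300 bases around a start. Counted the same way by gene, with a match at any listed promoter, 6.31% of 27025 genes held it. Among called members it was 5 of 13 and among the other members 4 of 27 (Ccl1, Ccl20, Ccr3 and Cxcl3). A match describes letters only, and binding was not measured here.

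Cxcl10, an interferon-induced ligand of Cxcr3, was lower and the most variable of the called genes within tertiary gliomas. It read 8.51, 8.43, 9.33 and 9.13 in secondary and 6.09, 7.57 and 4.65 in tertiary gliomas, and tertiary glioma 2 lay less than 1 below secondary glioma 2. The difference was -2.75 ± 0.61 (limma adjusted p = 0.0366), and ranged from -3.48 (tertiary glioma 2 left out) to -2.02 (tertiary glioma 3 left out). The other interferon-induced ligands, Cxcl9 and Cxcl11, were below the filter in both groups, with differences of 0.12 and 0.02. The annotated range of Cxcl10 overlaps the coding gene Art3, and Cxcl11 is listed as a transcribed pseudogene in the RefSeq table of the C57BL/6J genome. The call of Cxcl10 held in 1 of the 7 fits that left out a sample, the one without tertiary glioma 2.

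All 5 measured genes of the macrophage inflammatory protein group and Ccl5, CC chemokines that attract monocytes and other leukocytes, were lower in tertiary gliomas. Ccl3 read 11.06, 11.16, 11.95 and 11.20 in secondary and 7.40, 6.45 and 5.29 in tertiary gliomas. Secondary gliomas were tight apart from secondary glioma 3, tertiary gliomas spread over more than 2 units, and the difference was -4.96 ± 0.47 (limma adjusted p = 0.000458). Ccl4, whose annotated range overlaps that of Ccl3, read 9.17, 9.39, 10.38 and 9.5 against 5.72, 5.66 and 5.34. Its tertiary values were close together, unlike those of Ccl3, and it fell by 4.04 ± 0.29 on the log2 scale (limma adjusted p = 0.000123). Ccl6 and Ccl9, rodent ligands of Ccr1, behaved alike in direction. Ccl6 read 9.62, 9.42, 9.86 and 8.77 against 5.01, 5.03 and 4.57 (difference -4.55 ± 0.27, limma adjusted p = 8.13e-05). Ccl9 read 8.69, 8.38, 9.24 and 8.27 against 5.14, 4.31 and 4.71 (difference -3.92 ± 0.28, limma adjusted p = 0.000133).

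Ccl5, which acts on Ccr1 and Ccr3 and is made by T cells as well as myeloid cells, differed less. It read 7.27, 7.03, 7.33 and 8.68 in secondary and 6.17, 5.13 and 4.64 in tertiary gliomas. Here secondary glioma 4 rather than 3 stood highest, the gap between the groups was under 1 unit, and the difference was -2.26 ± 0.48 (limma adjusted p = 0.0287). The call was lost without secondary glioma 1 (limma adjusted p = 0.0528) or 3 (0.0647) or tertiary glioma 2 (0.111) or 3 (0.107). Microglia and macrophage markers moved with all 5 ligands, at a median of -4.19, and their part was not tested. Of the 17 called chemokine genes, 5 (Cxcl2, Ccl3, Ccrl2, Ccl12 and Ccl6) had a difference below that median.

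Of the 4 genes grouped as ligands of Ccr2, the receptor of inflammatory monocytes, 2 were called lower and all 4 had separate groups. In the whole array 6.33% of genes tested were called lower, and 9.51% of all genes had separate groups with lower tertiary values. One of the 4 ligands, Ccl8, is known to act on Ccr8 in the mouse. Ccl12, a mouse chemokine, read 9.45, 9.25, 10.85 and 9.90 in secondary and 5.53, 5.87 and 4.46 in tertiary gliomas. Its lowest secondary value stood more than 3 units above the highest tertiary one, and the difference was -4.57 ± 0.46 (limma adjusted p = 0.000649). Ccl2, the main monocyte attractant, read 7.01, 7.20, 8.23 and 7.0 against 6.01, 5.53 and 5.29. Its groups were separated by about 1 unit (difference -1.75 ± 0.33, limma adjusted p = 0.0179), and the call was lost without tertiary glioma 2 (limma adjusted p = 0.0735) or 3 (0.0783). Ccl8 read 7.34, 4.69, 5.89 and 4.95 against 3.46, 4.29 and 3.77, and the wide spread of the secondary gliomas left it uncalled (difference -1.88 ± 0.60, limma adjusted p = 0.115). Ccl7 was not called either (difference -0.84 ± 0.30, limma adjusted p = 0.150), and its tertiary mean of 3.61 was below the filter. Ccl7 and Ccl8 are described after their values were seen, because their groups did not overlap.

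The calls were also set in chromosome order, where 6.33% of all genes tested on the array were called lower. In the RefSeq gene order of chromosome 11, Ccl5, Ccl9, Ccl6, Ccl3 and Ccl4 stand side by side with no other coding gene between them, and all 5 were called lower. In the run Ccl2, Ccl7, Ccl11, Ccl12, Ccl8 and Ccl1 of the same chromosome, 2 of 6 were called, and the dim Ccl11 lies between Ccl7 and the steeply lower Ccl12. On chromosome 5, Cxcl1 and Cxcl2 are adjacent and were called, while Cxcl5, Cxcl3 and Cxcl15 in the same run were dim. The receptor run of chromosome 9, Ccr9, Cxcr6, Xcr1, Ccr1, Ccr3 and Ccr2, had no called gene in limma, but 4 of the 6 were dim and not tested. The 2 tested genes, Ccr9 and Cxcr6, had no unadjusted p under 0.05 in limma. Ccr9 and the dim Ccr1 had separate groups with the probe used for each, with the tertiary values lower, but not with their other probes.

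**Figure D3:**
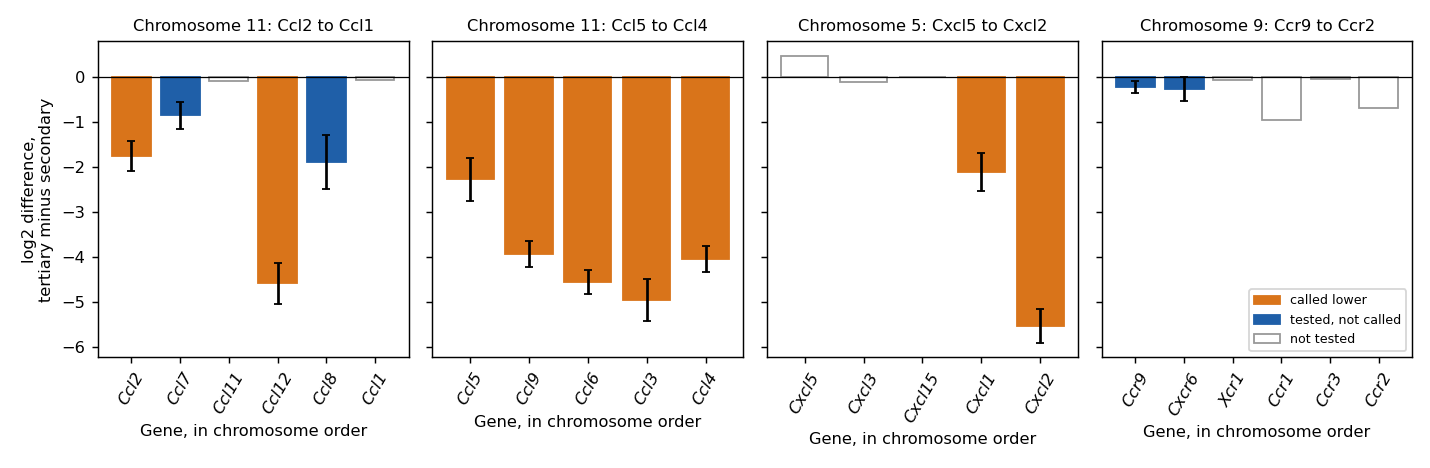
Difference in log2 level, tertiary minus secondary (bars start at 0, with the limma standard error for tested genes), in 4 runs of neighbouring members drawn in chromosome order. All 5 genes from Ccl5 to Ccl4 on chromosome 11 are between -2.26 and -4.96. The receptor run on chromosome 9, where 4 of 6 genes were dim and not tested, stays between 0 and -1.

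Ligands known for lymphocyte traffic gave 1 called gene of 6 tested, where 6.33% of all genes tested were called lower. Cxcl13, which draws B cells through Cxcr5, read 8.80, 8.48, 8.13 and 10.25 in secondary and 4.40, 6.05 and 5.93 in tertiary gliomas. Secondary glioma 4 was the highest and tertiary glioma 1 the lowest, unlike in most called genes, and the difference was -3.45 ± 0.58 (limma adjusted p = 0.0100). Ccl17, Ccl22, Ccl27a and Ccl28 differed by between -0.17 and 0.21 and were not called. Ccl20 and Ccl1 lay below the filter. No lymphocyte marker was called in these samples.

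Ccl25, a ligand of Ccr9 known from thymus and gut, had the highest positive difference of the tested members and was not called. It read 6.48, 6.14, 5.84 and 6.02 in secondary and 6.25, 7.83 and 7.20 in tertiary gliomas. Tertiary gliomas 2 and 3 were above every secondary glioma and tertiary glioma 1 was within their range (difference 0.97 ± 0.35, limma adjusted p = 0.151). Without tertiary glioma 1 the difference was 1.39 (limma adjusted p = 0.0161). A second Ccl25 probe read 4.88, 4.69, 4.23 and 4.53 in secondary and 5.20, 5.62 and 5.12 in tertiary gliomas. On that probe every tertiary value lay above every secondary one (difference 0.73 ± 0.20, limma adjusted p = 0.0838). Ccl25 is named after its values were seen, as the 1 member called higher under some alternatives.

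Cxcl16, a membrane-bound ligand of Cxcr6, was lower with little spread. It read 9.34, 9.54, 10.30 and 9.59 in secondary and 6.94, 7.09 and 6.68 in tertiary gliomas. More than 2 units separated the groups (difference -2.79 ± 0.24, limma adjusted p = 0.000289), and a second probe gave -4.0 ± 0.29. Its annotated range overlaps the coding gene Zmynd15. Cxcl14, a chemokine made constitutively by many epithelia, kept a high reading in both groups: 9.45, 9.73, 9.35 and 9.11 against 8.54, 8.74 and 8.03. Its difference of -0.97 ± 0.22 (limma adjusted p = 0.0352) was not called without secondary gliomas 1 (0.0787), 2 (0.0871) or 3 (0.0765) or tertiary glioma 3 (0.106). A second Cxcl14 probe gave -0.49 ± 0.14 (limma adjusted p = 0.0952).

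Fractalkine, Cx3cl1, a chemokine anchored in the membrane of neurons, showed no called difference. It read 7.03, 6.97, 6.45 and 7.0 in secondary and 7.90, 7.0 and 6.72 in tertiary gliomas, and the groups overlapped (difference 0.35 ± 0.29, limma adjusted p = 0.509). Cxcl12 was just above the filter, between 4.37 and 4.71 in all 7 samples (difference -0.09 ± 0.13, limma adjusted p = 0.711). The other ligands tested and not called were Ccl24 and Cxcl17, at -0.40 and 0.04.

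Among receptors, 6 signalling receptors were tested, and of these Cxcr4 and Ccr6 were called, both lower. Of all genes tested, 6.33% were called lower. Cxcr4, the receptor of Cxcl12, read 9.5, 10.06, 9.65 and 9.74 in secondary and 7.06, 7.70 and 7.5 in tertiary gliomas. Both groups were tight, with nearly 2 units between them, and the difference was -2.32 ± 0.20 (limma adjusted p = 0.000306), a 4.98-fold lower level. Ccr6, the receptor of Ccl20, read 7.37, 7.61, 8.92 and 7.78 against 4.26, 4.73 and 3.88. Tertiary values reached the dim filter (difference -3.63 ± 0.38, limma adjusted p = 0.000861). Cxcr3, Cxcr5, Cxcr6 and Ccr9 were tested and not called, with differences between -0.27 and -0.01. Microglia and macrophage markers were lower beside Cxcr4 and Ccr6, at a median of -4.19, and their part was not tested.

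The remaining 9 signalling receptors, Ccr1, Ccr2, Ccr3, Ccr4, Ccr7, Ccr8, Ccr10, Cxcr2 and Xcr1, lay below the filter. Ccr1 had separate groups, at 3.72, 3.53, 4.10 and 3.05 against 2.59, 2.89 and 2.47. With no filter its difference of -0.95 ± 0.25 had a limma adjusted p of 0.0808, the lowest of the 18 dim members, and none of the 18 was called. Ccr2 read 2.50, 2.76, 3.81 and 2.92 against 2.50, 2.09 and 2.35, with overlap. Dim probes of RMA data are compressed, so absence of a call there does not show that a receptor was unchanged.

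Of the 5 atypical receptors, all tested, Ccrl2 and Ackr4 were called lower, where 6.33% of all genes tested were called lower. Ccrl2, which binds the chemoattractant chemerin, read 8.73, 9.22, 10.42 and 9.46 in secondary and 4.96, 4.55 and 4.49 in tertiary gliomas. The secondary gliomas spread over more than 1 unit and the tertiary ones lay close together (difference -4.79 ± 0.37, limma adjusted p = 0.000169), a 27.7-fold lower level. Ackr3, the atypical receptor of Cxcl12 and Cxcl11, read 7.91, 7.74, 8.15 and 7.97 against 6.46, 7.24 and 8.07. Tertiary glioma 3 lay within the range of the secondary gliomas and the other 2 below it (difference -0.69 ± 0.34, limma adjusted p = 0.263). Ackr1 and Ackr2 differed by 0.14 ± 0.23 and 0.01 ± 0.16 and were not called.

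Ackr4, a scavenger of Ccl19, Ccl21 and Ccl25, read 9.59, 9.91, 10.33 and 9.81 in secondary and 8.85, 9.20 and 8.79 in tertiary gliomas. The difference was -0.96 ± 0.20 (limma adjusted p = 0.0277), and its probes went different ways. A second probe gave -1.0 ± 0.20, while the remaining probe read 3.91 to 4.51 in secondary and 4.13 to 4.54 in tertiary gliomas, a difference of 0.03 ± 0.20 (limma adjusted p = 0.947). In the RefSeq table Ackr4 overlaps the coding gene Acad11, whose own 2 probes differed by -0.23 ± 0.21 and -0.11 ± 0.36. The call was also lost without secondary gliomas 2 (limma adjusted p = 0.0749) or 4 (0.0631) or tertiary gliomas 1 (0.0507) or 3 (0.110). The Ackr4 call thus rests on 2 of its 3 probes.

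**Figure D4:**
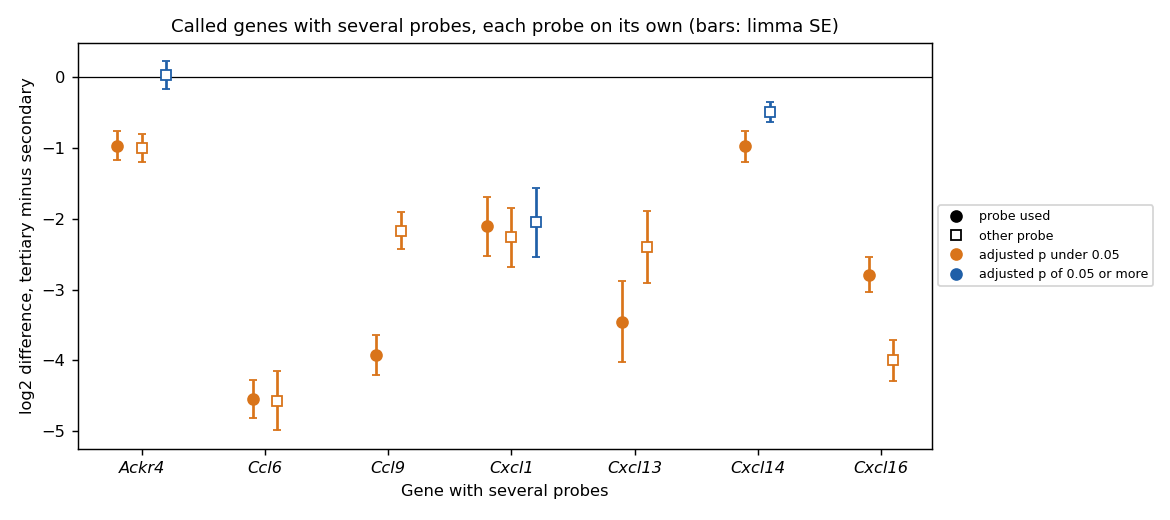
Difference in log2 level, tertiary minus secondary, with the limma standard error, for every probe of the 7 called genes that have several. Filled circles are the probes used and open squares the others, orange where the adjusted p was under 0.05. The dimmest Ackr4 probe sits at 0.03, while the Ccl6 probes lie together at -4.55 and -4.57.

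Ligands were then set beside the receptors they are known to act on. Of 34 measured ligand-receptor pairs, 14 had a called ligand, with 11 ligands and 9 receptors in them. In 9 of the 14 the receptor was below the filter, in the other 5 it was tested and not called, and in none was it called. Of the receptors tested, Cxcr3, Cxcr5 and Cxcr6 read near the filter, so the lack of a call does not show that they were unchanged. For Cxcl2 and Cxcl1 the partner Cxcr2 read 3.52 to 4.19 in secondary and 3.02 to 3.63 in tertiary gliomas, overlapping. Conversely, Cxcr4 and Ccr6 were lower while Cxcl12 differed by -0.09 and the dim Ccl20 by -0.10. The levels in cells outside the sort were not measured.

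Some of the genes that act below chemokine receptors were also called, all of them lower. Of 34 signalling genes tested, 12 were called lower, none higher, and 22 were not called. The median difference of the 34 was -0.17. At an unadjusted p under 0.05 limma had 14 lower and 2 higher. Over all genes tested the adjusted calls were 6.33% lower and 1.04% higher, and the unadjusted ones 11.7% and 12.1%. The 4 with the lowest p were Vav1, a guanine nucleotide exchange factor of blood cells (difference -4.22 ± 0.27), the Src-family kinase Fgr (-3.24 ± 0.23), the Rac activator Dock2 (-3.36 ± 0.26) and Pik3r6, a subunit of PI3-kinase gamma (-4.63 ± 0.40). Of 9 RGS genes tested, whose proteins shorten G protein signals, 3 were lower, Rgs1 (-4.65 ± 0.27), Rgs2 (-2.87 ± 0.30) and Rgs10 (-2.91 ± 0.39). The other 6 were not called. The microglia and macrophage markers were lower beside them, at a median of -4.19, and their part was not tested.

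Of 17 NF-κB subunits and regulators, 5 were called lower and none higher, where all genes tested gave 6.33% and 1.04%. At an unadjusted p under 0.05 limma had 9 lower and 2 higher, where all genes tested gave 11.7% and 12.1%. The inhibitors Nfkbia (-2.11 ± 0.16) and Tnfaip3 (-3.07 ± 0.32), both also targets of NF-κB, were among the 5 called. So were Nfkbiz (-1.87 ± 0.25) and the subunit Rel (-2.79 ± 0.39). The fifth was the adaptor Myd88. Among 7 chemoattractant genes outside the set, the receptors C5ar1 (-3.78 ± 0.37) for complement C5a and Cmklr1 (-1.32 ± 0.26) for chemerin were lower and none was higher, with 3 lower and 1 higher at an unadjusted p under 0.05 in limma. Cmklr1 and Ccrl2, which share chemerin as a ligand, were thus both called. The gene of chemerin itself, Rarres2, was tested and not called (difference -0.06 ± 0.13, limma adjusted p = 0.797). All 17 genes that mark microglia and macrophages fell in the same samples (median difference -4.19). Their part in the calls of these 2 lists was not tested.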

How the data were processed

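Per the labels' protocols, total RNA of sorted EGFP-positive cells was amplified as cDNA (Ovation Pico WTA System V2) and biotin was added. The deposited values are log2 expression per probe, made by the authors with RMA per the submitters' processing notes; no version is stated for RMA. That the log base is 2 was read from the values. RMA equalises arrays and compresses differences of dim probes. No detection calls or scan dates were used here, and precision is limited by the number of arrays.

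Of 45101 probes, 34945 had 1 gene symbol, 932 several, 9160 none, and 64 were controls. Each of 18193 genes took its probe with the highest mean. Genes averaging under the 25th percentile over the array's probes were left out, and 14453 were tested with limma 3.58.1 in R 4.3.3 (lmFit, eBayes, no covariate; Benjamini-Hochberg, adjusted p under 0.05). The steps were tested on simulated data. Tables and figures used Python 3.11.15, pandas 2.3.3 and matplotlib 3.10.9. Array coordinates were not used; gene order and promoters come from RefSeq, GRCm38.p6.

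The members, lists, pairs and motif were chosen with earlier results of these data known. Named with values are called members, uncalled members above the median of genes tested, their paired partners, and up to 4 called genes of each other list; the remaining members are given by counts and ranges. Alternatives covered probe choice, dim filter, normalization, variance, array weights, replicate block, threshold and leaving out each sample.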

Additional observations from a re-analysis of the deposited data

Results flagged for a closer look

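Among 30 named genes, 4 had a secondary glioma far from the others of its group by Dixon's criterion for 4 samples, which chance meets in about 1 of 20 groups. Ccl2 was at 8.23 in secondary glioma 3, against 7.20 in the next. Ccl3 was at 11.95 in secondary glioma 3, against 11.20 in the next. Cx3cl1 was at 6.45 in secondary glioma 3, below the others at 6.97 to 7.03. Cxcr3 was at 4.15 in secondary glioma 4, with the next at 4.13, a gap of no practical size. The calls of Ccl2 and Ccl3 held without secondary glioma 3.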

How the results depend on the processing

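The count of 17 members called lower ranged from 12 to 15 over the 7 fits that each left out 1 sample, and was 10 with the variance of each gene on its own. The count of members called higher, 0, was 1 with array weights and 1 without both secondary glioma 3 and tertiary glioma 1 (added after seeing the data), and 0 to 1 when each sample was left out in turn; the member was Ccl25 each time. Of the 17 called genes, 11 kept their call in all 7 of these fits, 10 of those in every gene-level alternative too, and all 17 kept their sign there. Cxcl10 missed the threshold with no dim filter (limma adjusted p = 0.0528), and Ackr4 with all its probes averaged (0.0801). Its dimmest probe alone gave 0.0302 in place of -0.96, and the cause was not tested. With the replicate number as a block, 12 members were called lower and 0 higher, but same-numbered samples of both groups had correlations of deviations of 0.04, -0.14 and 0.01, so the numbers are not taken to pair samples. With 4 and 3 arrays, small differences of dim probes cannot be resolved.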
